A study of Mus musculus with 2 samples.

Results

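RUNX2-occupied regions were examined at the 53 keratin genes of the mouse genome that lie in the keratin arrays of chromosomes 11 and 15. RUNX2 is the Runt-family transcription factor needed for bone formation, and its positions were mapped by CUT&Tag, in which an antibody directs the transposase Tn5 to cut the DNA beside the bound protein. The cells were MC3T3-E1, a mouse line labelled as embryonic osteoblast precursors. They were untreated, and both libraries are replicates of a single group, with no control library and no other condition. Whether the 2 libraries stem from different cultures is not labelled, and their spread could be technical only.

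The members are the protein-coding genes of the RefSeq annotation (GRCm38.p6) on these chromosomes whose symbol is Krt followed by a number, 53 of 21887 protein-coding genes on chromosomes 1 to 19, X and Y. Each library has a list of called peaks, 26853 in replicate 1 and 27287 in replicate 2, with positions and widths and without heights. Read depth is therefore unknown. A place where peaks of both lists overlapped by at least 1 bp is called a shared region, and its position is the midpoint of its widest replicate 1 peak. Keratin genes and regions were linked where that position fell inside the gene or at most 10 kb beyond one of its ends. The link describes position and does not show that RUNX2 regulates the gene, and peaks do not measure expression.

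Keratins are the intermediate filament proteins of epithelial cells. Each filament is built from pairs of an acidic type I and a basic type II keratin, and different epithelia use different pairs. Simple epithelia use KRT8 with KRT18, the basal layer of skin uses KRT5 with KRT14, the layers above it use KRT1 with KRT10, and the hair shaft has its own set. The type I genes form an array on chromosome 11 and the type II genes one on chromosome 15, where Krt18, a type I gene, lies beside Krt8. Cells of mesenchymal origin such as osteoblasts build their filaments mainly from vimentin.

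Of the 53 keratin genes, 7 were linked to a shared region (13.2%). They were Krt10, Krt23 and Krt31 on chromosome 11 and Krt80, Krt88, Krt81 and Krt78 on chromosome 15. Among all protein-coding genes 52.7% were linked in the same way, and among those of chromosomes 11 and 15 alone 62.1%. The 7 genes held 7 regions, since Krt88 and Krt81 shared 1 and Krt78 had 2. The other 46 keratin genes had none. They included the basal pair Krt5 and Krt14, the simple epithelial pair Krt8 and Krt18, and Krt1, Krt6a, Krt7, Krt16, Krt17, Krt19 and Krt20. A single keratin gene, Krt10, had a shared region within 1 kb of either end (1.89%), against 32% of all protein-coding genes. Shared regions lay inside 3 keratin genes, Krt10, Krt80 and Krt78, against 30.3% of all protein-coding genes. No difference between the keratin genes and other genes was tested, and signal too weak to be called as a peak does not appear in the lists.

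**Figure D1:**
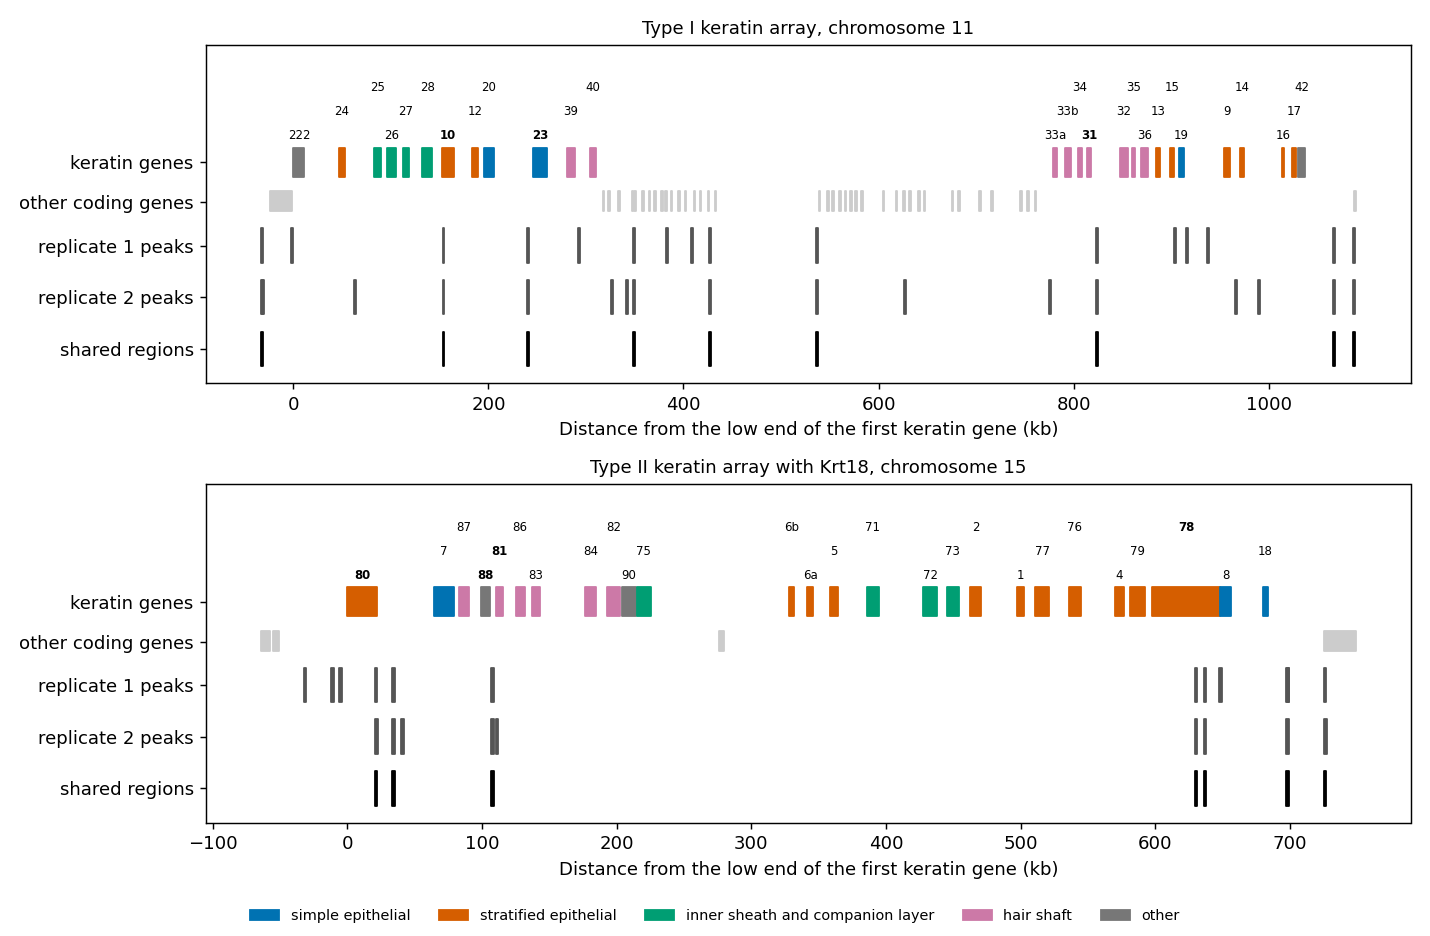
Map of both keratin arrays, with distance in kb from the low end of the first keratin gene on the horizontal axis and rows for keratin genes (numbers without the prefix Krt, bold where linked, coloured by class), other coding genes, peaks of each replicate and shared regions. Marks narrower than 2 kb (genes, 1.5 kb) are widened to be visible. On chromosome 15 no peak of either replicate lies in the middle 519 kb.

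The regions are described by class of keratin. Among simple epithelial keratins, Krt23, a type I keratin gene (chr11:99477973-99493120), had a region 5635 bp below its low end, at chr11:99471912-99472586. The peak there measured 497 bp in replicate 1 against 665 bp in replicate 2. Both replicates thus carried the region, and it lay beyond the gene's far end, 20782 bp downstream of its annotated start.

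Among the keratins of stratified epithelia, Krt10, which encodes the suprabasal partner of KRT1 (chr11:99385254-99397449), had a region inside the gene at chr11:99385720-99386119. Its peak measured 400 bp in replicate 1 against 391 bp in replicate 2, and the replicate 2 peak lay wholly within the replicate 1 peak. The region was 665 bp from the low end of the gene, which is transcribed towards lower coordinates, and 3445 bp downstream of the annotated start. It therefore lay at the 3′ part of the gene. Krt80, which encodes a type II keratin of differentiating epithelia (chr15:101348315-101370162), had a region 1177 bp inside its high end, at chr15:101368705-101369266. The peak measured 562 bp in replicate 1 against 291 bp in replicate 2. The region also lay within the long noncoding RNA gene Gm35853, with the microRNA gene Mir1941 85 bp above it.

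Krt78, which encodes a type II keratin of stratified epithelia, had both its regions in the upper part of its annotated span (chr15:101946001-101996624). The lower region, chr15:101977459-101977710, measured 252 bp in replicate 1 against 229 bp in replicate 2. The upper one, chr15:101984125-101984690, measured 566 bp in replicate 1 against 388 bp in replicate 2. The annotated start used for the promoter sequence of Krt78 is at 101954287, and measured from it the regions lay 23297 and 30120 bp upstream. Their place inside the gene thus rests on the long span, 50624 bp against a median of 7070 bp for the keratin genes.

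Among hair keratins, Krt31 (chr11:100046646-100050551), which encodes a type I keratin of the hair shaft, had the region with the widest peaks of the 7. It lay at chr11:100055751-100056569, 5587 bp upstream of the annotated start. The peak measured 776 bp in replicate 1 against 778 bp in replicate 2. The region between Krt88 (chr15:101447724-101453925) and the hair shaft keratin gene Krt81 (chr15:101459061-101463765) was at chr15:101455132-101455814. Its peak measured 683 bp in replicate 1 against 536 bp in replicate 2. It was 1548 bp above Krt88 and 3588 bp below Krt81, so that a single region gives both links. Each of the 7 regions had a keratin gene as its nearest protein-coding gene.

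**Figure D2:**
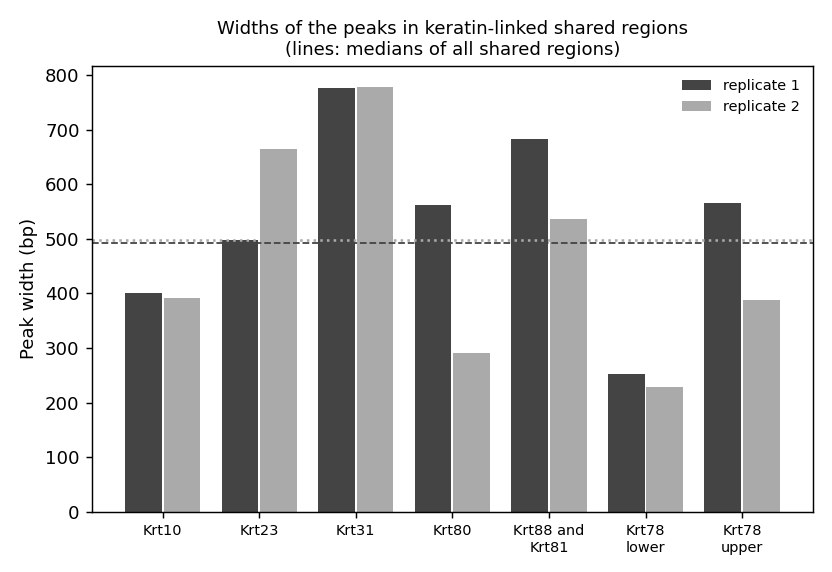
Widths in bp of the widest peak of each replicate in the 7 shared regions linked to keratin genes, dark bars for replicate 1 and light bars for replicate 2. The dashed and dotted lines are the medians over all shared regions, 492 bp in replicate 1 and 497 bp in replicate 2, and the Krt31 bars of 776 and 778 bp stand highest.

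The median peak width over the 7 regions was 562 bp in replicate 1 and 391 bp in replicate 2. Over all 18128 shared regions it was 492 and 497 bp. In replicate 1 the keratin regions ranged from percentile 12.4 of width (lower Krt78 region) to percentile 83.3 (Krt31), and in replicate 2 from 9.05 to 83.2 at the same regions. The order of the regions in between differed between the replicates. The Krt80 peak, at percentile 60.2 in replicate 1, was at 17.5 in replicate 2.

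Several keratin genes had a peak in 1 replicate only. In replicate 1, 12 keratin genes had a peak inside or within 10 kb (60.6% of all protein-coding genes did), and in replicate 2, 11 had one (60.7%), a mean of 11.5 ± 0.71 (SD, n = 2). The 7 genes named above were among both. Another 5 had a replicate 1 peak without a counterpart: Krt222, Krt39, Krt15, Krt19 and Krt8. The 4 with a replicate 2 peak only were Krt24, Krt33a, Krt9 and Krt14. No keratin gene had unmatched peaks of both replicates without a shared region. Krt15, which encodes a basal keratin, had a 223 bp peak 366 bp above its high end, and the same peak was 4495 bp below Krt19, a keratin gene of simple epithelia. Krt19 had another of 173 bp, 1866 bp above it. The peak 1022 bp below Krt8 was 280 bp wide and lay inside the span of Krt78. The 406 bp peak nearest to Krt222, chr11:99230553-99230958, lay inside the high end of Smarce1 (chr11:99209047-99231017). Smarce1 is a chromatin remodelling gene that borders the array. Krt14 and Krt9 were given the same 321 bp peak of replicate 2, 4411 bp from Krt14.

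These unmatched peaks were mostly narrow. In replicate 1, 6 of the 13 peaks linked to keratin genes had no counterpart, with widths of 173 to 406 bp. In replicate 2 it was 4 of 11, with widths of 182 to 331 bp. The shared part was thus 53.8% in replicate 1 and 63.6% in replicate 2, against 68.2% and 67.2% of all peaks. The remaining 37 keratin genes (69.8%) had no peak of either list inside or within 10 kb, against 34.2% of all protein-coding genes.

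The middle of the chromosome 15 array had no peak in either list over 519 kb. From 101458578 to 101977458, a stretch of 518881 bp, no peak was called in either replicate. It held 19 keratin genes, from Krt81 to Krt79, and 1 other coding gene. Krt81, at its lower edge, is nonetheless a linked gene, through the region 3588 bp below it and outside the stretch. Among the members were Krt5, Krt6a, Krt6b, Krt1, Krt2, Krt71 and Krt75. No other peak-free stretch of chromosome 15 held as many protein-coding genes, and of the 35595 such stretches in the genome it ranked 47th by the number of coding genes and 744th by length. Krt5 was the member farthest from a shared region, at 251.6 kb. Its nearest peak was 251.6 kb away in replicate 1 and 248.6 kb in replicate 2.

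Per length, the chromosome 15 array held slightly fewer peaks than the rest of the chromosome. The array, from the low end of Krt80 to the high end of Krt18, spans 0.684 Mb and held 5 shared regions, or 7.31 per Mb, against 7.96 per Mb in the rest of the chromosome. Replicate 1 had 8.78 peaks per Mb there against 11.7 in the rest, and replicate 2 had 10.2 against 11.9, and these differences were not tested. Of the 5 shared regions, 3 ended by 107 kb from the low end and the other 2 began at 629 kb. The array was dense in coding genes, with 39.5 per Mb against 7.26 per Mb in the rest of the chromosome. On chromosome 11 the array from Krt222 to Krt42 spans 1.04 Mb, including the interval of keratin-associated protein genes. It held 6 shared regions, or 5.78 per Mb, against 11.03 per Mb in the rest of the chromosome, and 62.7 coding genes per Mb against 12.8. Replicate 1 had 11.57 peaks per Mb in this array against 15.95 in the rest of chromosome 11, and replicate 2 had 12.53 against 15.81. These differences were not tested either.

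On chromosome 11 the stretch without a shared region that held the most keratin genes was at the upper end of the array. From 100056570 to 100298425, a stretch of 241856 bp, 11 members lay without one, from Krt32 to Krt42, with Krt13, Krt15, Krt19, Krt9, Krt14, Krt16 and Krt17 among them. Unlike the middle of the chromosome 15 array, this stretch had peaks of single replicates, near Krt15, Krt19, Krt9 and Krt14. At the lower end 6 members, from Krt222 to Krt28, lay in a stretch of 184998 bp without a shared region. All 4 type I genes of the inner root sheath of the hair follicle, Krt25, Krt26, Krt27 and Krt28, were in it.

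**Figure D3:**
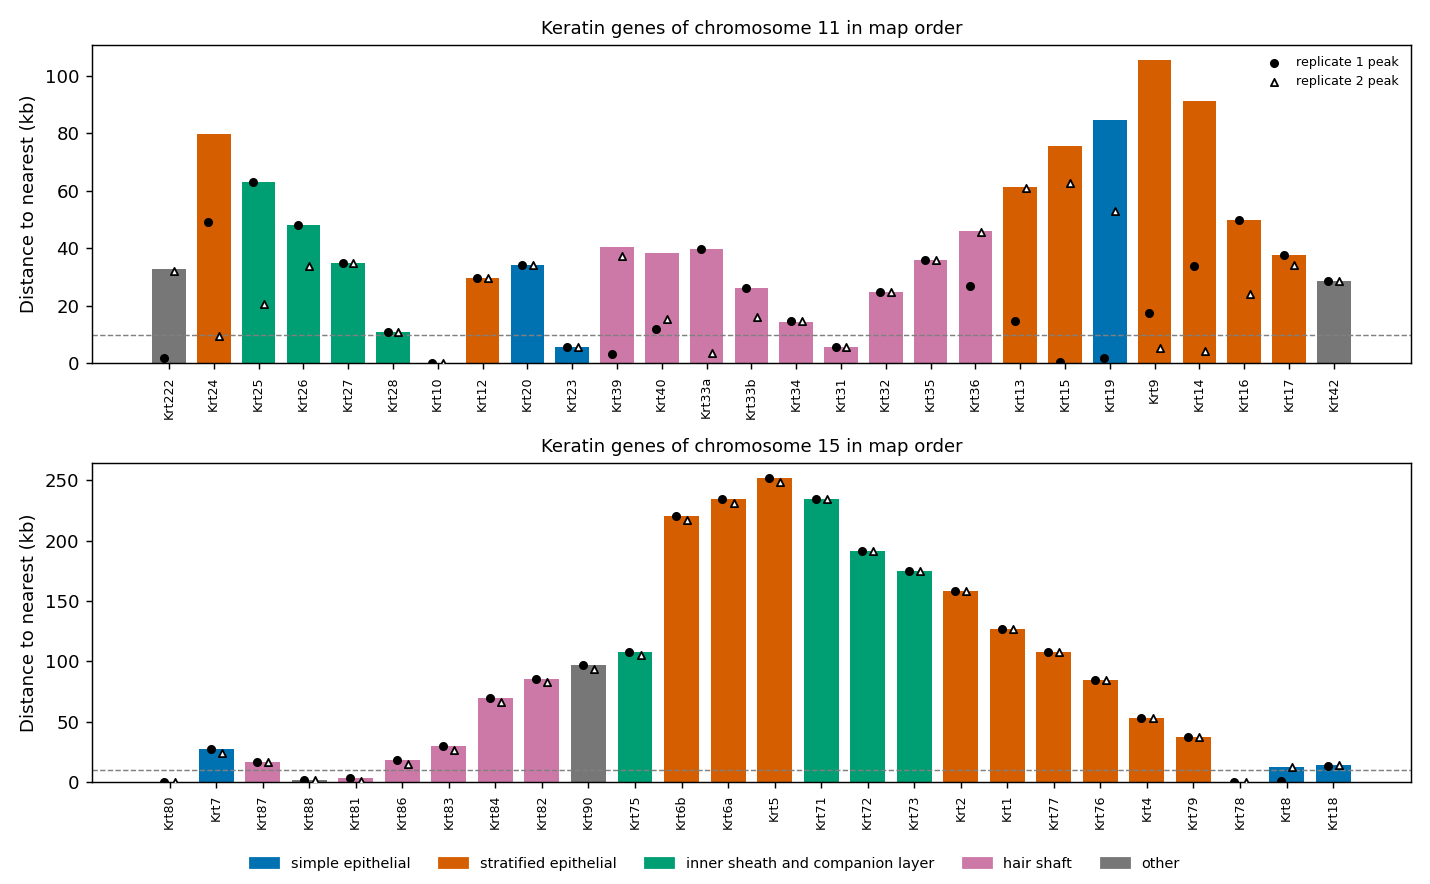
Distance in kb from each keratin gene to the nearest shared region (bars, coloured by class), replicate 1 peak (filled circles) and replicate 2 peak (open triangles), with genes in map order and 0 where a peak lies inside the gene. The dashed line marks 10 kb, and the bars of chromosome 15 rise to 251.6 kb at Krt5.

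The median distance from a keratin gene to the nearest shared region was 39.9 kb, against 6.92 kb for all protein-coding genes. It was 37.7 kb for the 27 genes of chromosome 11 and 77.1 kb for the 26 of chromosome 15. Over 50 kb from any shared region were 22 members (41.5%), against 30.1% of all protein-coding genes and 17.0% of those on chromosomes 11 and 15. Over 100 kb away were 11 members (20.8%), against 22.3% of all protein-coding genes and 10.1% of those on chromosomes 11 and 15. Of the 11, 10 were on chromosome 15 and the other was Krt9.

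By class, 1 of 6 simple epithelial keratin genes was linked, 3 of 20 genes of stratified epithelia, 2 of 15 hair shaft genes and 0 of 8 genes of the inner root sheath and companion layer. Of the 4 other genes, Krt222, Krt42, Krt88 and Krt90, 1 was linked. Over all 53 keratin genes the share was 13.2%, and over all protein-coding genes 52.7%. A count of 0 among 8 is near the keratin share and is not a result about that class. The 8 inner sheath and companion layer genes had no peak of either replicate within reach. The same held for 69.8% of all keratin genes and 34.2% of all protein-coding genes. Neighbouring genes often belong to the same class in these arrays, so the classes are not independent samples.

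Some members narrowly missed the 10 kb limit. Krt28 was 11016 bp from the Krt10 region. Krt8 was 12304 bp from the upper Krt78 region. The nearest shared region to Krt18 lay 13876 bp above it, at chr15:102045417-102046156, and Krt18 was its nearest protein-coding gene. A further region, chr15:101381831-101382243, was 11899 bp above Krt80. Counting to 50 kb linked 31 of 53 keratin genes (58.5%) and 69.9% of all protein-coding genes.

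Promoter sequences were compared for the members with one in the RefSeq table (GRCm38.p6). Windows of 300 bases, 250 before and 50 after an annotated start, were found for 36 of the 53 genes, in 37 windows. The 17 genes without a window included the linked genes Krt80, Krt88 and Krt81. Also among them was Krt15, with a replicate 1 peak 366 bp above its high end. None of the 37 windows overlapped a peak of either replicate, whereas 30.97% of the 21263 windows of all protein-coding genes overlapped a shared region. The windows below show the contrast in letters, 5′ to 3′ on the strand of the gene, with CG dinucleotides and the sequence TATAAA in capitals. Krt10 (chr11:99389315-99389614, minus strand) and Krt31 (chr11:100050502-100050801, minus strand) are linked genes, Krt5 (chr15:101712856-101713155, minus strand) is the member farthest from a region, and Krt7 (chr15:101412153-101412452, plus strand) and Krt18 (chr15:102027966-102028265, plus strand) are unlinked members rich in CG. Eif1 (chr11:100319699-100319998, plus strand), a translation initiation factor gene that borders the chromosome 11 array, is shown because its window lies under a shared region.
Krt10: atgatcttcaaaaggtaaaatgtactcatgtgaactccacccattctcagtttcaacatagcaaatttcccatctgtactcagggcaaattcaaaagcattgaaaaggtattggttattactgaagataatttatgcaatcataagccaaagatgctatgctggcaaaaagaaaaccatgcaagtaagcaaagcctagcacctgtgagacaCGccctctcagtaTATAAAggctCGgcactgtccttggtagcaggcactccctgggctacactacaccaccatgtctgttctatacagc
Krt31: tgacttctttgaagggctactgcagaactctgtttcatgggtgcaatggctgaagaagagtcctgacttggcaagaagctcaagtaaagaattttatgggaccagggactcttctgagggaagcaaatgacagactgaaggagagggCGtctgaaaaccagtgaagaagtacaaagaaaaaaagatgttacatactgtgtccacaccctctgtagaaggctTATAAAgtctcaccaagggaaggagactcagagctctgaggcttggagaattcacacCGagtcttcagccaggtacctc
Krt5: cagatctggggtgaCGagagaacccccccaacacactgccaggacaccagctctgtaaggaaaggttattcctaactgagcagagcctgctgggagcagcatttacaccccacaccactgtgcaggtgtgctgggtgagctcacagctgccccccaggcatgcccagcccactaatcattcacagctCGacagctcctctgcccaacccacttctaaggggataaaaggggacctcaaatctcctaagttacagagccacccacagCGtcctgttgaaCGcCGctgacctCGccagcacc
Krt7: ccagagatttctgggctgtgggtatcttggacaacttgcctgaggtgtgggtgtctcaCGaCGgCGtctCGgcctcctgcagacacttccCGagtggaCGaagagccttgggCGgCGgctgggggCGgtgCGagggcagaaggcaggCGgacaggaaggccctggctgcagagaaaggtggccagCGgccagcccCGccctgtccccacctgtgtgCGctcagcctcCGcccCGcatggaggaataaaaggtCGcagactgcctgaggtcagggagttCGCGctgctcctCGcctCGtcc
Krt18: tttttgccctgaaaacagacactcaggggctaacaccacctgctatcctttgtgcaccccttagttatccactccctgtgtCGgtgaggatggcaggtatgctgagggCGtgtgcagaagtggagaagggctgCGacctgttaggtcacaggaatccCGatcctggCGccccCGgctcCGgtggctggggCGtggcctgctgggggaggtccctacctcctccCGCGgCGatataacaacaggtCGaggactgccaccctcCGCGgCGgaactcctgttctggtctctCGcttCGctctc
Eif1: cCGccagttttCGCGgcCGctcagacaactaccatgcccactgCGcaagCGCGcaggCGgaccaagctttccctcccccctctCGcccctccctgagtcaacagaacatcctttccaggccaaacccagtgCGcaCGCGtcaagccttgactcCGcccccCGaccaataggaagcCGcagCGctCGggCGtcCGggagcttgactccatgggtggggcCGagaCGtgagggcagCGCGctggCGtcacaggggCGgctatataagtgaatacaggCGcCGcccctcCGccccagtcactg

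The keratin windows were poor in CG dinucleotides. They held a median of 5, with a range of 2 to 21, against a median of 13 over all windows. The windows of Krt10 and Krt31 held 2 each, that of Krt5 held 6, those of Krt18 and Krt7 held 17 and 21, and that of Eif1 held 28. Of the 37 windows, 34 held at most 10 CG dinucleotides. Among all windows with at most 10, 5.81% overlapped a shared region, and among those with more than 10, 51.8%. A count of 0 among 34 is near that low background and is not a result about the keratin genes. The 3 windows with more were those of Krt72, Krt18 and Krt7, and none of them overlapped a peak.

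**Figure D4:**
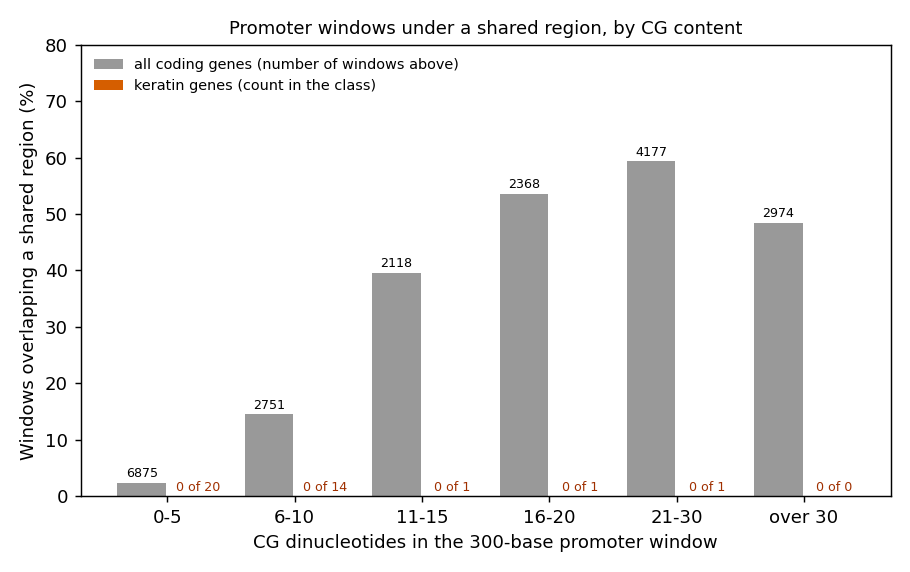
Share of promoter windows overlapping a shared region (vertical axis, %) by the number of CG dinucleotides in the window, with grey bars for all protein-coding genes (number of windows above each) and counts for keratin genes beside them. The share rises from 2.33% of windows with 0 to 5 CG dinucleotides to 59.3% with 21 to 30, and all keratin counts are 0.

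The link within 10 kb was set against CG content in the same way. Of the 5402 protein-coding genes whose windows all held at most 5 CG dinucleotides, 18.1% were linked to a shared region within 10 kb. Of the 19 keratin genes with such windows, 2 were linked, Krt10 and Krt31 (10.5%). The linked genes Krt80, Krt88 and Krt81 have no window and could not enter this count. By length alone, 56.1% of the protein-coding genes as long as the shortest to the longest keratin gene (2812 to 50624 bp) were linked. With both limits it was 21.8%. The longest keratin gene is Krt78, and the keratin median is 7070 bp, so the length range matches the keratin genes only loosely. It held 13747 of the 21887 protein-coding genes. These limits were chosen after the keratin values were seen, and the part that CG content plays in the counts was not tested.

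TATAAA, the classic TATA box, was common in keratin windows. Read on the strand of the gene, it was present in 17 of 37 windows (45.9%), against 8.26% of all windows. It began 20 to 40 bases before the start in 13 (35.1%), against 2.53% of all windows. It began 26 bases before the start of Krt10 and 29 bases before that of Krt31, and it was not in the windows of Krt5, Krt7 and Krt18. Of all windows that overlapped a shared region 3.51% held TATAAA anywhere, and of the others 10.4%. The core of the RUNX motif, TGTGGT on either strand, was in 2 keratin windows (5.41%), those of Krt42 and Krt79, against 14.97% of all windows. It was in 11.9% of the windows overlapping a shared region and 16.3% of the others. The AP-1 motif TGANTCA, which reads the same on both strands, was in both windows of Krt13 (5.41% of the keratin windows) and in 6.99% of all windows. These matches describe the letters of the windows and are not binding sites. Sequences under the peaks themselves were not analysed here.

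Other genes of filaments and of epithelial identity were set beside the keratins. Of 15 other intermediate filament genes, 8 were linked (53.3%), near the 52.7% of all protein-coding genes. Within 1 kb of an end, 5 had a region (33.3%), against 32%. Vim, which encodes vimentin (chr2:13574311-13582826), had 2 shared regions. The wider of them, chr2:13573332-13574547, was 372 bp outside its low end and measured 1216 bp in replicate 1 against 1097 bp in replicate 2. Lmna, which encodes the nuclear lamins A and C, had 5 regions, and Synm, which encodes synemin, had 1. The muscle filament gene Des and the neural stem cell filament gene Nes had none, with the nearest at 42.8 and 11.5 kb.

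Of 20 desmosome and plakin genes, which anchor keratin filaments to cell junctions and to other filaments, 11 were linked (55%). This is near the 52.7% of all protein-coding genes. The other 9 had none, and 8 of the 20 (40%) lay over 100 kb from any shared region, against 22.3% of all protein-coding genes. Among the linked genes, Plec, which encodes the linker plectin, had 5 regions and the plakophilin genes Pkp1 and Pkp2 had 2 each. Jup, which encodes plakoglobin and lies above the chromosome 11 array, had 1 region 1623 bp outside the gene, and the desmoplakin gene Dsp had 1 at 6503 bp. Of the 20 genes, 1 had a region within 1 kb of an end (5%), against 32% of all protein-coding genes. Their median length was 38.6 kb against 7.07 kb for the keratin genes.

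Of 20 epithelial regulators and adhesion genes, 8 were linked (40%), against 52.7% of all protein-coding genes. Within 1 kb of an end, 1 had a region (5%), against 32% of all protein-coding genes. Trp63, which encodes p63, a factor needed for stratified epithelia, had 2 regions, the wider of them inside its 208326 bp. The cadherin gene Cdh1 had 1. Klf4, which encodes a factor of skin barrier formation, had 1 region 464 bp outside the gene, with peaks of 880 bp in replicate 1 and 873 bp in replicate 2. Grhl2, Epcam and Klf5 had none. These lists held genes of other lengths than the keratins, and no list was tested against another.

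Other gene families, each taken by symbol over the whole genome, offer another view. Of 98 cytochrome P450 genes 17 were linked (17.3%), and of 39 Hox genes 10 (25.6%), against 7 of 53 keratin genes (13.2%). Among all protein-coding genes it was 52.7%. The linked Hox genes held 4 distinct regions, since neighbours shared them, the cytochrome P450 genes 19 and the keratin genes 7. The share of genes without any peak in either list was 69.8% for the keratins, 68.4% for cytochrome P450 genes and 46.2% for Hox genes. For all protein-coding genes it was 34.2%. These shares were not tested against each other.

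**Figure D5:**
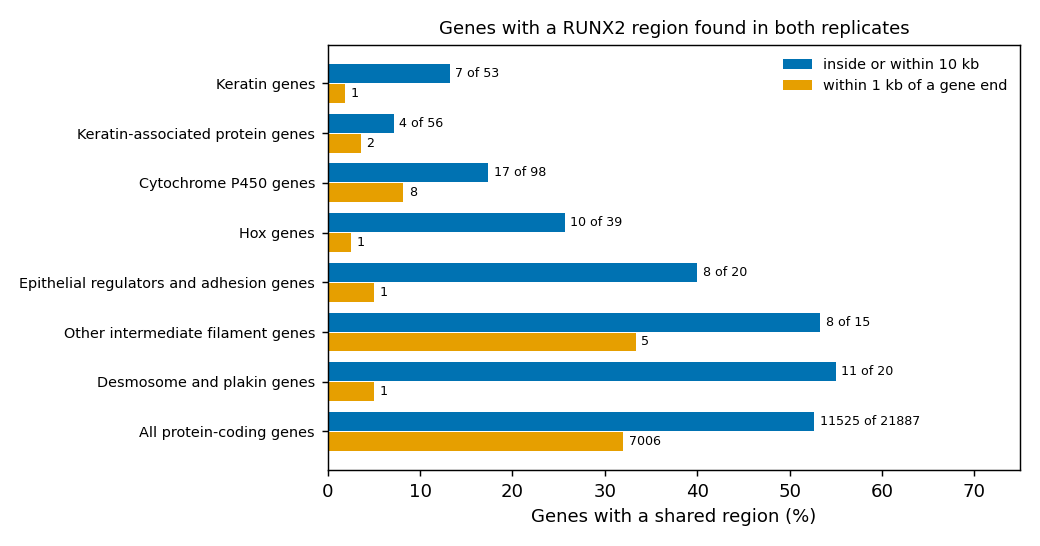
Share of genes (horizontal axis, %) with a shared region inside or within 10 kb (blue) and within 1 kb of a gene end (orange) for the keratin genes, 6 other lists and all protein-coding genes, with counts beside the bars. The keratin bars end at 13.2% and 1.89%, and those of all protein-coding genes at 52.7% and 32%.

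At the upper border of each array a shared region covered the start of a translation initiation factor gene. Eif1 had a shared region across its low end, at chr11:100319643-100320588, with peaks of 907 bp in replicate 1 and 946 bp in replicate 2, wider than any keratin region. It lay beyond the last keratin gene of chromosome 11, Krt42. Eif4b, which follows Krt18 on chromosome 15, had one at chr15:102073380-102074165, with peaks of 786 bp in replicate 1 and 575 bp in replicate 2. Its midpoint was 1 bp from the low end of Eif4b. The replicate 2 peak there was narrower than those of Krt31 and Krt23. At the lower borders, Smarce1 on chromosome 11 and Smim41 on chromosome 15 had no shared region within 1 kb of an end, and their nearest were 8960 and 8958 bp away. The replicate 1 peak linked to Krt222 lay inside the high end of Smarce1, without a counterpart in replicate 2.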

How the data were processed

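CUT&Tag libraries of RUNX2 from 2 replicates of untreated MC3T3-E1 cells were analysed from the deposited peak lists, which the authors made for each replicate separately. Per the submitters' processing notes, fastp 0.19.6, Bowtie2 and deepTools were used with GRCm38 (mm10), with no roles given. How peaks were called, with which threshold and against which control, is not given in the sources used here. Each deposited list holds 5 unnamed columns (number, chromosome, start, end, width), with no score or depth. Width equals end minus start plus 1, so positions were read as counted from 1.

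Peaks overlapping by at least 1 bp were merged with Python 3.11.15 and pandas 2.3.3, tested on simulated data. Genes came from the RefSeq table of GRCm38.p6 (49943 genes), which gives spans without exons. Strand came from its promoter windows. An array is a run of keratin genes with gaps below 500 kb. With 1 group and no control, no test was made. The members and gene lists were chosen with earlier results of these data known. Named genes are all keratin genes with a peak, well-known members without one, the genes nearest to a keratin region or bordering the arrays, and members of the 3 other lists. Gm35853, Mir1941, Krt72, Krt42, Krt79, Krt90 and Krt13 were named after their values were seen. Krt74, annotated as a pseudogene, was not counted, and Krt85 was not analysed here. The cytochrome P450, Hox and CG content comparisons were added after the data were seen.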

Additional observations from a re-analysis of the deposited data

How the results depend on the processing

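The count of linked keratin genes was 7 (13.2%) under a reciprocal overlap of at least 50%, any overlap of a region with the window and positions from replicate 2. They were the same 7 genes, and all protein-coding genes were at 44.8%, 52.8% and 52.6%. With regions assigned to whichever coding gene had the closest end, up to 100 kb, it was also 7, against 44.4% of all protein-coding genes. Of the 7 genes 6 remained, Krt18 taking the place of Krt81. With peaks above the median width alone it was 4 (Krt10, Krt80 and Krt78 dropped out), with 3 regions, and all protein-coding genes were at 36.0%. Counting only inside genes gave 3 genes (5.66%) and 4 regions, as did inside or within 1 kb. All protein-coding genes were at 30.3% and 43.4%. Counting to 50 kb gave 31 genes (58.5%) and 13 regions, with all protein-coding genes at 69.9%. With either replicate left out, the genes ranged from 11 to 12 and the regions from 11 to 13, and the 7 genes were among them each time. All protein-coding genes were then at 60.6% to 60.7%. The shared regions in the arrays numbered 11, against 10 with the reciprocal overlap, 4 with the wider peaks only, and 18 to 20 peaks with a replicate left out. Keratin genes with a region within 1 kb of an end numbered 1, against 0 with the wider peaks only and 2 to 3 with a replicate left out. The share of linked keratin genes was below that of all protein-coding genes under each of the 10 alternatives for that count. The cause of these changes was not tested beyond the fewer or more peaks and the shorter or longer reach that the settings impose. No paired analysis was possible because the series holds 1 group. Without read numbers, depth sets a limit that the lists do not show.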

Other observations

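The interval between Krt40 and Krt33a on chromosome 11, 468 kb long, holds 38 protein-coding genes and no keratin gene. Most encode keratin-associated proteins, which crosslink keratin filaments in the hair shaft. It held 3 shared regions. The region at chr11:99581157-99581949 lay between Krtap1-5, 537 bp away, and Krtap1-4, 996 bp away, with peaks of 793 bp in replicate 1 and 682 bp in replicate 2. Another, chr11:99658767-99659589, was 173 bp from an end of Gm11563, with peaks of 732 bp in replicate 1 and 353 bp in replicate 2. The last, chr11:99768347-99768754, was 3192 bp from Gm11595, with peaks of 352 and 263 bp. Of the 56 genes in the genome whose symbol is Krtap followed by a number, 4 were linked (7.14%), to 2 distinct regions. Among all protein-coding genes 52.7% were linked. No peak of either list was within reach of 45 (80.4%), against 34.2% of all protein-coding genes. These genes are short, with a median of 833 bp. Gm11563 and Gm11595, which were linked to shared regions, have other symbols and were not in this list.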
